A study of Homo sapiens with 4 samples.

Results

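The 4 ERBB receptor genes (EGFR, ERBB2, ERBB3 and ERBB4) and 6 genes of their ligands (NRG1, NRG2, NRG3, NRG4, AREG and EREG) were examined for DNA methylation differences between SKOV3 clones with mesenchymal (M) and epithelial (E) phenotype. Among the 1000 bp tiles listed in the deposited comparisons, regions were chosen by position, as those that overlap the gene, extended by 5 kb on each side. Only tiles past the authors' limits on difference and q-value are listed. This gave 70 distinct tiles, 21 at receptor and 49 at ligand genes, of 72455 listed in the series, and the 10 genes were taken from 20163 protein-coding genes. SKOV3 cells come from a human ovarian cancer line, long in use, that is known to carry an ERBB2 amplification, and LY75 is an endocytic lectin receptor that was suppressed in the E clones. Reduced representation bisulfite sequencing (RRBS) was performed on 4 libraries of SKOV3 cells, 1 per clone. The M clones were shC-S, which expressed a control shRNA, and LY75-R-S, in which LY75 was put back as a shRNA-resistant cDNA into LY75-shRNA cells (labelled Ly75-OV-S). The E clones were sh-LY75-S, with LY75 suppressed by shRNA, and LY75-KO-S, with LY75 inactivated by CRISPR. LY75-R-S carries both the shRNA and the cDNA whereas LY75-KO-S was made by CRISPR, so the constructs of that pair cannot be told apart from LY75 loss, and neither can differences between single clones in either pair.

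RRBS cuts DNA with MspI, converts unmethylated cytosines of short fragments with bisulfite, and reads the percent methylation of each CpG from the cytosines left. The values reported are differences in percent methylation per tile, in percentage points, with a q-value (the adjusted p-value) from methylKit. The authors' deposited tables compare sh-LY75-S with shC-S (the shRNA pair), LY75-KO-S with LY75-R-S (the KO pair), and the E with the M libraries of both pairs together (the mix). A positive difference is read as hypermethylation in SKOV3-E. For the shRNA pair this order rests on 10 genes that the text of the paper names as hyper- or hypomethylated in the E clones: the largest tile within 2 kb of a TSS had the stated sign in all 10. As those genes were selected on these libraries, this fixes the sign alone. In the KO pair 5 of them had such a tile, 3 with the stated sign. For the KO pair the reading rests on the mix, which was fitted as 0.534 times the shRNA difference plus 0.435 times the KO difference over 4250 tiles. Over the 737 of these tiles with opposite signs in the pairs, the weights were 0.722 and 0.649. At chr10:83992001-83993000 every comparison was at 100 points. If the mix was grouped as the paper states, this requires LY75-KO-S to be the higher clone there. The deposited name of the KO comparison puts the E clone first, whereas that of the shRNA pair puts the M clone first. The names thus do not give the order, which rests on the grouping of the mix. The opposite order would reverse every sign given for the KO pair. The tables hold tiles with a difference of 25 points or more and a q-value under 0.01. They carry neither read numbers nor methylation levels, so depth is unknown. A single pair has no replicate error, and its q-values compare libraries, not conditions. The mix sets 2 E against 2 M libraries, but these are different clones, and their spread cannot be seen without levels. A tile that is not listed was either not covered or did not pass the limits on difference and q-value. The label of the cells cannot be checked against marker genes with these values.

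The ERBB receptors are tyrosine kinases of the cell surface that act as dimers. EGFR binds ligands such as amphiregulin (AREG) and epiregulin (EREG), ERBB3 and ERBB4 bind neuregulins, ERBB2 has no known soluble ligand and is the favoured dimer partner, and ERBB3 has little kinase activity of its own. Activated dimers feed the RAS/MAPK and PI3K/AKT pathways, and this family is a known driver and drug target in carcinomas. Methylation of CpG islands at transcription start sites (TSSs) is associated with silent genes, whereas methylation within gene bodies is common in active genes.

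Sequences of MspI fragments, the units that RRBS reads, are shown for the tiles on which the results turn. They were taken from the GRCh37 (hg19) plus strand, 5′ to 3′, with CpGs in capitals. Which of these CpGs were read in the 4 libraries is not given by the tables. The first pair lies in the adjoining EGFR tiles hypermethylated in sh-LY75-S, and the next fragment in the ERBB4 tile that was lower in the E clone in every comparison.
EGFR intron 1, near tile (chr7:55088060-55088103): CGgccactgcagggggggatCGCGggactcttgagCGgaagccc
EGFR intron 1, next tile (chr7:55089734-55089778): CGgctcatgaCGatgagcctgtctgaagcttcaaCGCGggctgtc
ERBB4 intron 20 (chr2:212389384-212389423): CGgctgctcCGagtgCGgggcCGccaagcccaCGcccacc
At NRG3, the fragments come from the 2 tiles around the start of the gene, which are dense in CpGs, and from a CpG-poor tile of intron 2 that was hypermethylated in every comparison.
NRG3 upstream of TSS (chr10:83634611-83634756): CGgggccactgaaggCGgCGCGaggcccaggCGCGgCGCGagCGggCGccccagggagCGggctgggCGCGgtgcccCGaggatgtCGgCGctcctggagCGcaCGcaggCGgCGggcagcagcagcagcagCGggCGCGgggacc
NRG3 exon 1 (chr10:83635622-83635727): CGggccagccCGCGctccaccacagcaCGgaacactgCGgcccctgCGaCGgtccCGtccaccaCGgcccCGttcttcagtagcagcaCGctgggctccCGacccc
NRG3 intron 2 (chr10:84201195-84201343): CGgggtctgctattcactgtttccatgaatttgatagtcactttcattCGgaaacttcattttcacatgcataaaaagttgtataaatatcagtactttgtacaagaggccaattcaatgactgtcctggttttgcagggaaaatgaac
The remaining fragment lies in the EREG tile at the start of the gene, listed for the KO pair alone.
EREG tile of exon 1 (chr4:75231061-75231115): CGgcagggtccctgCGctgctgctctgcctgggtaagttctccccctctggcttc

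Of the 10 genes, 6 had a listed tile in the shRNA pair, where 60.3% of all protein-coding genes had one, 8 in the KO pair (46.8% of all genes) and 6 in the mix (38.2% of all genes). EGFR, ERBB4, NRG1, NRG2 and NRG3 had tiles in every comparison. The tiles of ERBB2, ERBB3 and EREG were listed for the KO pair alone, NRG4 had its tile in the other comparisons, and AREG had none. The genes differ in length, from 9.87 kb for AREG to 1112 kb for NRG3, 1163 kb for ERBB4 and 1216 kb for NRG1.

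In the shRNA pair, 60 tiles of these genes were listed, 33 hyper- and 27 hypomethylated in the E clone. The hypermethylated share of 55% (95% Wilson interval 42.5 to 66.9, counting error only) compares with 64.7% of all listed tiles. The KO pair gave 23 tiles, 16 of them higher in the E clone (69.6%, interval 49.1 to 84.4, against 54.7% of all listed tiles). The mix gave 20 tiles, 16 of them higher (80.0%, interval 58.4 to 91.9, against 65% of all). In each comparison the share over all tiles lay inside the interval of the ERBB genes. The median absolute difference was 57.7, 48.6 and 48.9 points in the 3 comparisons, against 50.0, 41.9 and 36.9 points over all listed tiles. Differences of 50 points or more made up 39 of 60, 11 of 23 and 10 of 20 tiles, where 53.2%, 37.5% and 21.6% of all listed tiles had them. All 20 mix tiles had the sign of the shRNA pair, whose libraries the mix contains.

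**Figure D1:**
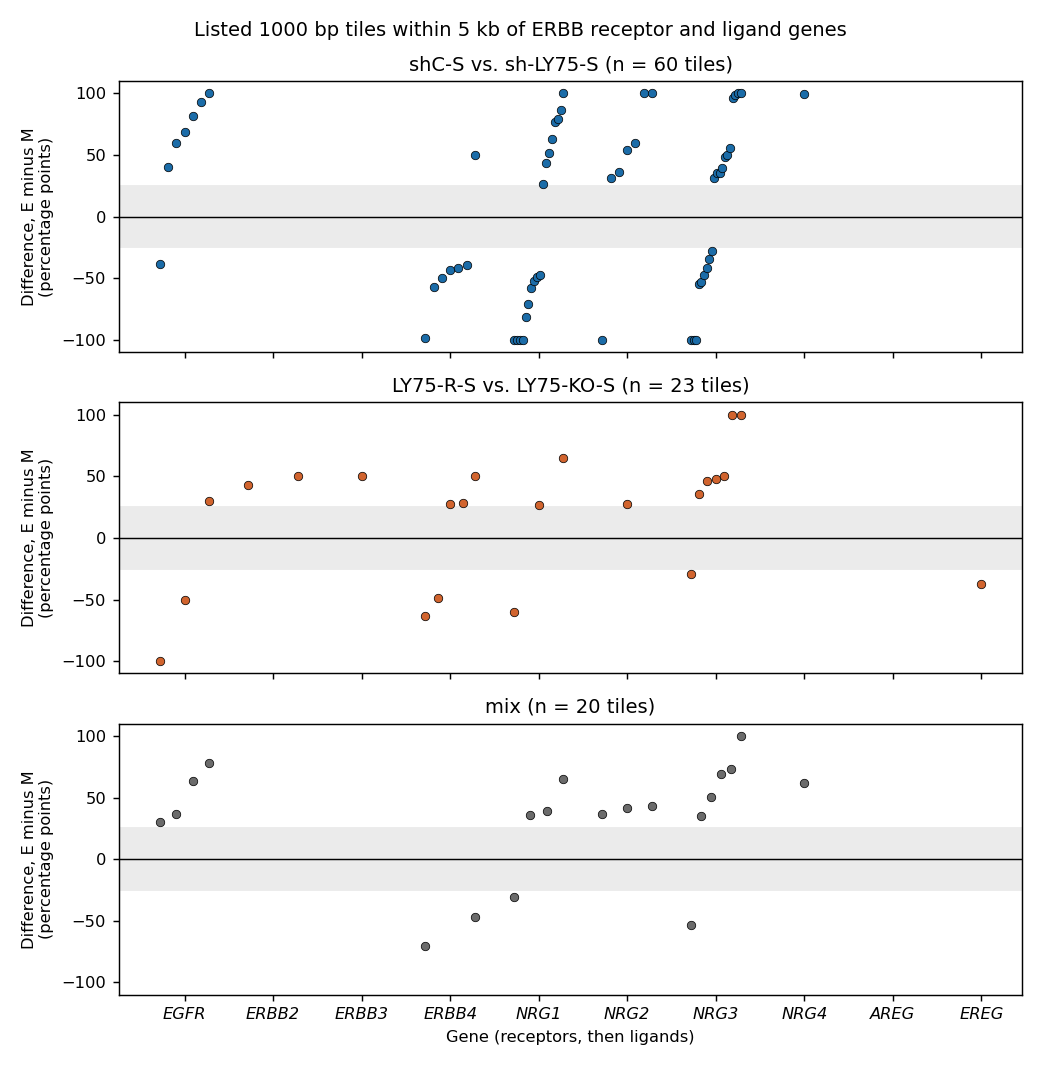
Difference in percent methylation (E minus M, percentage points, y axis) of each listed tile by gene (x axis), with 1 panel per comparison and 1 point per tile, and the grey band marking differences under 25 points, which are not listed. EGFR and NRG2 tiles of the shRNA pair were mostly higher (6 of 7 each) and ERBB4 tiles mostly lower (6 of 7), while NRG1 and NRG3 held both directions.

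EGFR, the receptor for EGF, amphiregulin and epiregulin, had 8 listed tiles, 7 of them in intron 1, which makes up 63.8% of the gene (chromosome 7, plus strand). In the shRNA pair, all 7 listed tiles lay in this intron, and 6 were hypermethylated in sh-LY75-S. The tile at chr7:55088001-55089000, whose centre lies 1.79 kb downstream of the canonical TSS, differed by 100 points (q = 7.55e-114), and the adjoining tile by 93.1 points. The mix gave 63.4 and 77.9 points for this pair, and neither was listed for the KO pair. Farther along intron 1, at 51.8, 59.8 and 115 kb from the TSS, sh-LY75-S was higher by 59.7, 68.3 and 81.3 points. The first and the last of these were higher in the mix too, by 36.5 and 30.2 points. Higher tiles of sh-LY75-S thus stood from 1.79 to 115 kb behind the start, with the 1 lower tile at 28.8 kb between them.

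The CpG-dense tiles at the EGFR start itself, chr7:55086001-55087000 and chr7:55087001-55088000 with 96 and 119 CpGs, were not listed in any comparison. The KO pair had 3 EGFR tiles, 2 of which opposed the shRNA pair. At chr7:55094001-55095000 the difference was 40 points in the shRNA pair and -50.0 in the KO pair. At chr7:55115001-55116000 it was -38.7 and 30.2 points. The other tile, in intron 20 and within the antisense gene EGFR-AS1, was lower in LY75-KO-S by the full range (-100 points, q = 2.77e-14). RRBS tiles carry no strand, so this tile belongs to both genes.

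ERBB2, the amplified receptor of SKOV3 cells, had 2 listed tiles, both hypermethylated in LY75-KO-S and both overlapping coding exons (chromosome 17, plus strand). The tile at chr17:37868001-37869000, which overlaps exons 8 and 9 although its 2 reachable CpGs lie outside the exons of the canonical transcript, differed by 43.1 points (q = 0.000858), and that at chr17:37883001-37884000, over exons 25 to 27, by 50.0 points (q = 1.33e-10). No ERBB2 tile was listed for the shRNA pair or the mix. MspI fragments could be read in 18 tiles of this gene, including those over its TSSs (46 and 72 CpGs in the tiles of the first and the canonical start), which were not listed. Whether the extra gene copies raised the number of reads at ERBB2 could not be examined without read numbers.

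ERBB3, the neuregulin receptor with weak kinase activity, had 1 listed tile, chr12:56494001-56495000, with a difference of 50.0 points in the KO pair (q = 1.52e-15). The tile overlaps exons 26 and 27, but all 3 of its CpGs within reach of reads lie outside exons. Its canonical start, with 64 CpGs in the tile, was not listed. A difference of exactly 50 points occurred in 5 of the 23 tiles of this comparison (6.7% of all its tiles), in 1 of 60 in the shRNA pair (5.07% of all) and in 0 of 20 in the mix (0.376% of all). Of the 5, 4 belonged to receptors, 1 each to EGFR (with a negative sign), ERBB2, ERBB3 and ERBB4, and 1 to NRG3.

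ERBB4, the neuregulin receptor with an active kinase, had mostly lower tiles in the shRNA pair, unlike EGFR (chromosome 2, minus strand). Of its 7 tiles in the shRNA pair, 6 were hypomethylated in sh-LY75-S, by -39.5 to -98.2 points, and 1, over exon 28, was higher by 50.0 points. The most negative tile, chr2:212389001-212390000 in intron 20 with 38 CpGs, was lower in the E clone in every comparison, by -98.2, -48.6 and -70.7 points (q = 1.66e-37, 1.6e-07 and 1.16e-37). A second tile, chr2:213180001-213181000 in intron 1, differed by -49.6 points in the shRNA pair and -47.0 in the mix. ERBB4 was thus the gene with the largest excess of lower tiles in the shRNA pair. In the KO pair, 3 of 5 tiles were higher and 2 lower.

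The tile chr2:212566001-212567000 was lower in sh-LY75-S (-57.6 points) and higher in LY75-KO-S (28.3 points). It overlaps ERBB4 exon 12, but 7 of its 8 reachable CpGs lie outside exons. LY75-KO-S also had tiles of its own in intron 20 (27.2 points), intron 13 (50.0 points) and intron 1 (-63.3 points). The single ERBB4 tile within 2 kb of any TSS, chr2:212987001-212988000 in intron 2, lay 1906 bp from the start of a short transcript and differed by -43.7 points in the shRNA pair. The tile of the canonical start (84 CpGs, 74 of them within reach of reads) was not listed.

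**Figure D2:**
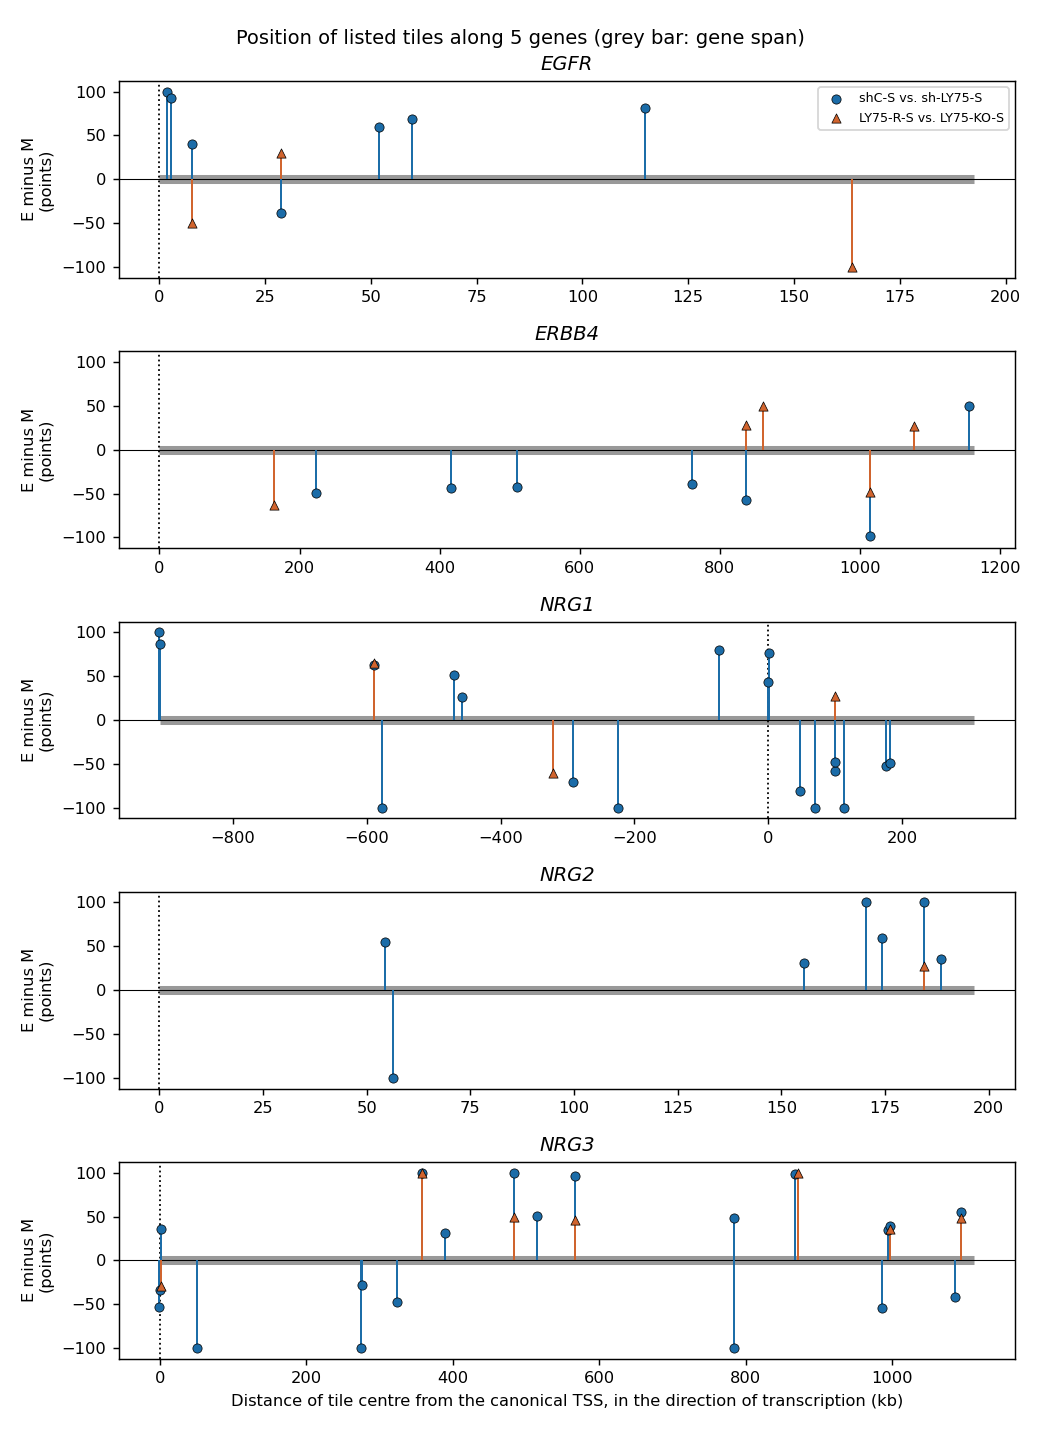
Difference in percent methylation (E minus M, percentage points, y axis) of listed tiles against the distance of the tile centre from the canonical TSS (kb, x axis, dotted line at 0), with circles for the shRNA pair, triangles for the KO pair and a grey bar for the gene. Intron 1 of EGFR carried 6 higher tiles in the shRNA pair, and all 7 NRG1 tiles from 46.7 kb downstream of the canonical TSS were lower in it.

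NRG1 encodes the founding neuregulin, a ligand of ERBB3 and ERBB4 that is made from several alternative promoters (chromosome 8, plus strand). It had 18 tiles in the shRNA pair, 8 higher and 10 lower in the E clone, 3 in the KO pair and 4 in the mix. The promoters differed in direction within the shRNA pair. At the most upstream start, chr8:31496001-31497000, at -909 kb from the canonical TSS, sh-LY75-S was higher by 100 points, and in the adjoining tile by 86.7 points. At the canonical start, chr8:32405001-32406000 and the adjoining tile with 83 and 106 CpGs, it was higher by 43.6 and 76.4 points. At a group of internal starts, chr8:32504001-32505000 and the adjoining tile, it differed by -57.8 and -47.6 points. The listed tiles of the upstream and the canonical start were thus hypermethylated in sh-LY75-S, and those of the internal start hypomethylated.

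All 7 NRG1 tiles lying more than 10 kb downstream of the canonical TSS were lower in sh-LY75-S, from -47.6 to -100 points, whereas 8 of the 11 others were higher. The 7 include both tiles of the internal start, and the 8 include those of the upstream and the canonical start. Between these last starts, intronic tiles of the shRNA pair lay in both directions, from -100 to 79.5 points. The boundary of 10 kb was chosen after the values were seen and is a description of these 2 libraries. In the mix, the upstream start (65.1 points) and the canonical start (36.0 points) were again higher and the internal start lower (-30.3 points). At each start, the other tile named above was not listed in the mix. The KO pair did not list the first 2 of these starts, and at the internal start it had the other sign, 27.1 points (q = 1.72e-22). This last tile also overlaps a second protein-coding annotation, ENSG00000286131.

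Far from any start, chr8:31817001-31818000 was higher in the E clone in all comparisons, by 62.8, 65.1 and 38.9 points. The KO pair gave 1 further NRG1 tile, chr8:32083001-32084000, at -60.2 points. Complete differences of -100 points occurred at 4 intronic NRG1 tiles of the shRNA pair, which held 5 to 14 CpGs. A tile of chr8:32581001-32582000, 1638 bp from the start of a short transcript, was at -52.5 points.

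NRG2, a neuregulin of ERBB3 and ERBB4 signalling, had 7 tiles, all listed in the shRNA pair, with 6 higher in sh-LY75-S (chromosome 5, minus strand). Those with the full difference of 100 points were chr5:139238001-139239000 in intron 5 and chr5:139252001-139253000 in intron 3, the latter 613 bp from the start of a short transcript. The intron 5 tile was also higher in LY75-KO-S, by 27.3 points (q = 2.08e-05). Over exon 2, chr5:139267001-139268000 differed by 31.0 points in the shRNA pair and 36.4 in the mix. The tile chr5:139248001-139249000, which overlaps an exon of a noncoding transcript but has its 1 reachable CpG outside it, differed by 59.5 and 41.5 points. Every listed tile from exon 2 onwards was thus higher in sh-LY75-S, while intron 1 held 1 tile at -100 and, 2 kb away, 1 at 54.3 points. The tiles of the canonical start (93 and 23 CpGs) were not listed.

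NRG3, a ligand of ERBB4 known mainly from the nervous system, had 21 tiles, the most of any of these genes (chromosome 10, plus strand). In the shRNA pair, 11 were higher and 9 lower in the E clone. At the start of the gene, chr10:83634001-83635000 with 132 CpGs differed by -52.9 points and chr10:83635001-83636000, over exon 1, by -34.1 points (q = 8.72e-106). The first of these overlaps a lncRNA gene, ENSG00000287358, and neither was listed for the KO pair or the mix. The next tile, in intron 1, was higher in sh-LY75-S (35.5 points) and lower in LY75-KO-S (-29.3 points). The CpG-dense start of NRG3 was therefore hypomethylated in sh-LY75-S, opposite in sign to the canonical start of NRG1 in the same libraries.

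With the order of subtraction read here for the KO pair, NRG3 also held most tiles that were hypermethylated in both E clones. Under the opposite order, the tiles higher in both would be chr10:83636001-83637000 of NRG3 and chr7:55094001-55095000 of EGFR. That order would need a grouping of the mix other than the one the paper states. At chr10:83992001-83993000, which overlaps an exon of an alternative transcript with its 1 reachable CpG outside that exon and lies within NRG3-AS1, the difference was 100 points in every comparison (q = 1.67e-26, 3.86e-25 and 8.07e-56). Over exon 2, chr10:84118001-84119000 gave 100, 50.0 and 73.3 points for the shRNA pair, the KO pair and the mix. In intron 2, chr10:84201001-84202000 gave 96.6, 46.4 and 69.5 points. In intron 6, chr10:84728001-84729000 gave 55.7, 48.0 and 50.8 points. Each of these 4 tiles was higher in both E clones than in the M clone of its pair. At chr10:84632001-84633000 both pairs were higher too (39.2 and 35.5 points), without a listing in the mix. In intron 1, chr10:83909001-83910000 was at -100 points in the shRNA pair and -53.3 in the mix, and in intron 2, chr10:84418001-84419000 at 48.4 and 35.0 points, next to a tile at -100 points. In the KO pair alone, chr10:84506001-84507000 in intron 3 was at 100 points. The remaining NRG3 tiles, listed in the shRNA pair alone, lay between -100 and 98.5 points.

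NRG4, a ligand of ERBB4, had 1 tile, chr15:76335001-76336000, with 3 CpGs (chromosome 15, minus strand). It differed by 99.3 points in the shRNA pair (q = 6.4e-106) and 61.8 in the mix. This tile lies upstream of the canonical start, in an intron of longer transcripts. EREG, an EGFR and ERBB4 ligand, had 1 tile, chr4:75231001-75232000 over exon 1 and the start of intron 1, 111 bp from a TSS, which was lower in LY75-KO-S by -37.0 points (q = 6.35e-11). The tile before it, which holds the canonical TSS of EREG, was not listed. For AREG, which lies next to it on chromosome 4 and encodes another EGFR ligand, no tile was listed in any comparison, although 3 tiles of the gene were within reach. The hg19 build carries a copy of AREG (AREGB, chr4:75480629-75490486) with 99.6% identity, at which no tile was listed either. How reads of these copies were placed was not tested.

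Within 2 kb of a TSS of the gene, 5 of the 10 genes had a listed tile in the shRNA pair (EGFR, ERBB4, NRG1, NRG2 and NRG3), where 37.5% of all protein-coding genes had one. In the KO pair these were 5 (ERBB2, ERBB3, EREG, NRG1 and NRG3, against 21.4% of all genes), and in the mix 3 (EGFR, NRG1 and NRG2, against 19.9%). NRG1 and NRG3 were the genes with such tiles in both single comparisons. Many of these starts belong to short transcripts inside the genes: with basic protein-coding transcripts alone, the count for the shRNA pair was 3, where the share of all protein-coding genes was 29.8%. The count was also 3 within 1 kb of a TSS, against 31.9% of all genes, and 3 without the complete differences of 100 points, against 35% of all genes. At 50 points or more, 2 genes had such a tile in the KO pair, against 8.31% of all genes. Over the 10 genes, 31 tiles contain a TSS and are reached by MspI fragments, and the 8 of them that were listed all belonged to NRG1 or NRG3. This is 25.8% of such tiles, against 17.6% of those of all protein-coding genes. Of the 70 tiles, 52 were intronic, 14 overlapped a coding exon, 3 a UTR exon and 1 an exon of a noncoding transcript, which does not place the CpGs that were read inside those exons.

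To set these counts against what RRBS can read, tiles with a CpG within 50 bp of an end of an MspI fragment of 40 to 220 bp were counted. The 10 genes held 278 such tiles. Of these, 53 (19.1%) were listed in the shRNA pair, against 12.6% of all reachable tiles. For the KO pair, with 17 tiles, the shares were 6.12% and 6.67%, and for the mix, with 18 tiles, 6.47% and 5.2%. Of all listed tiles in the series, 91.1%, 87.6% and 92.1% were reachable in this sense. Some tiles named above held no such CpG, among them chr8:31817001-31818000 of NRG1, chr10:84728001-84729000 of NRG3, chr7:55250001-55251000 of EGFR and chr2:213240001-213241000 of ERBB4. The excess in the shRNA pair was found near TSSs (13 of 67 tiles, 19.4%, against 13.3% of such tiles in all genes) and away from them (40 of 211, 19.0%, against 12.4%). In the KO pair, 8.96% of the ERBB gene tiles near TSSs and 5.21% of those away from them were listed, against 5.62% and 6.97%. In the mix these were 7.46% and 6.16%, against 5.61% and 5.08%. By gene, the listed share in the shRNA pair was 31.5% for NRG3, 25% for EGFR, 22.6% for NRG2, 21.9% for NRG1, 14.0% for ERBB4 and 10.0% for NRG4, and 0 for ERBB2, ERBB3, AREG and EREG. These shares depend on which tiles were covered, which is unknown, and neighbouring tiles of 1 gene are not independent.

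**Figure D3:**
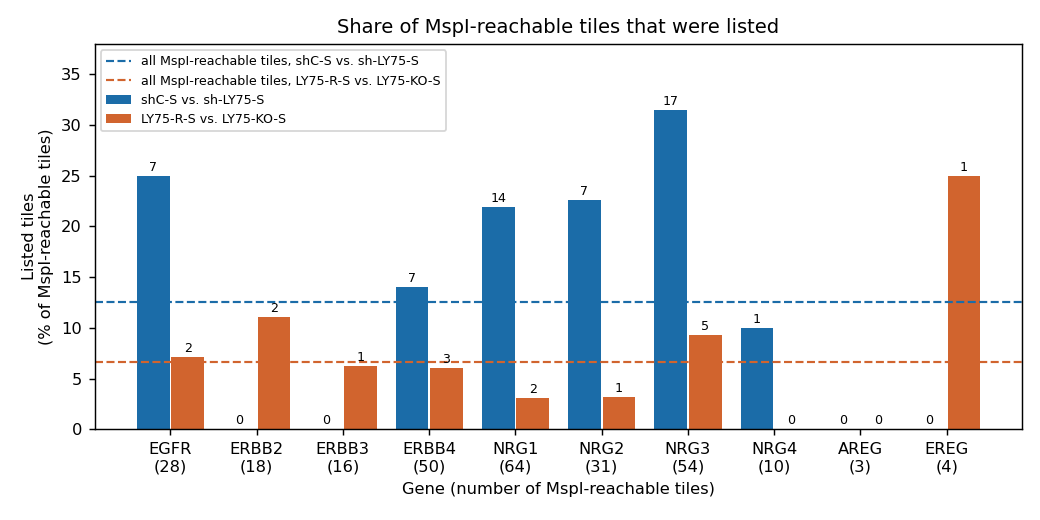
Listed tiles in percent of the tiles that MspI fragments reach (y axis) for each gene, with the number of reachable tiles in parentheses under the gene, the number listed above each bar, and dashed lines for all reachable tiles of the genome (12.6% and 6.67%). In the shRNA pair, NRG3, EGFR, NRG2, NRG1 and ERBB4 lie above the line, and ERBB2, ERBB3, AREG and EREG are at 0.

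The single comparisons share no library, but LY75-R-S was made from sh-LY75-S cells, so the pairs are not independent. In both, 13 tiles of 5 genes were listed (21.7% of the 60 and 56.5% of the 23 tiles, against 16.3% and 29.5% over all tiles of the series). Of the 13, 8 had the same direction and 5 opposite directions, and over the series 52.6% of shared tiles had the same direction. NRG3 held 6 of the shared tiles. Under the opposite order for the KO pair, only chr10:83636001-83637000 of these would be higher in both E clones. The mix as grouped in the paper does not give that order. With the order read here, 5 of the 6 NRG3 tiles were higher in both. The other 3 tiles of like direction were the ERBB4 intron 20 tile (lower in both), an NRG1 intronic tile and the NRG2 intron 5 tile (higher in both). The 5 opposite tiles were 2 of EGFR and 1 each of ERBB4, NRG1 and NRG3. Away from NRG3, the shared tiles were thus nearly evenly divided by direction.

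**Figure D4:**
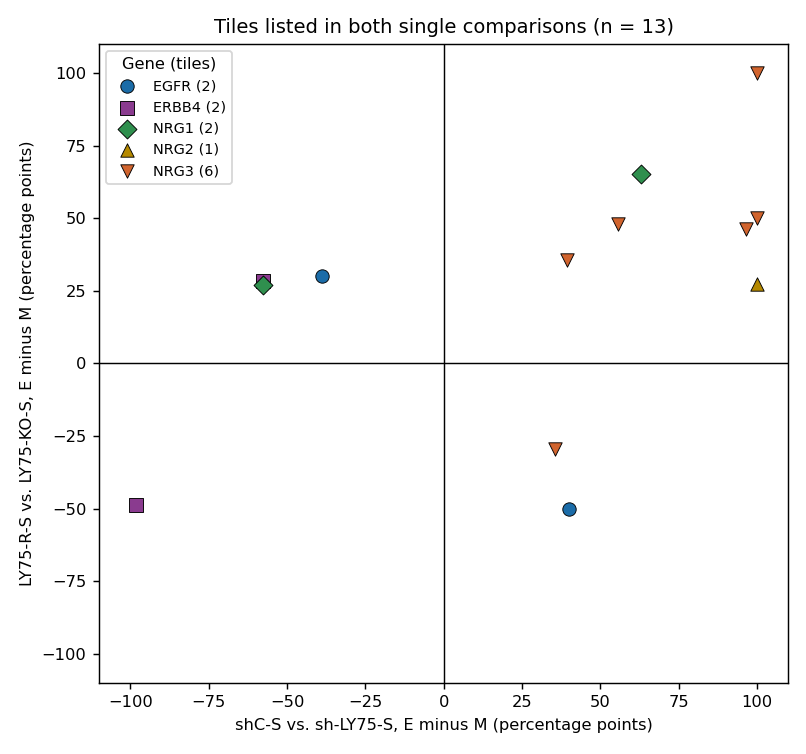
Differences in percent methylation (E minus M, percentage points) of the 13 tiles listed in both single comparisons, with the shRNA pair on the x axis, the KO pair on the y axis and 1 symbol per gene. With the order of subtraction read here for the KO pair, the upper right and lower left fields hold 8 tiles of like direction, 5 of them of NRG3. The other 5 tiles had opposite signs.

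Complete differences of 100 points were seen in 14 tiles of the shRNA pair (6 higher and 8 lower), 3 of the KO pair and 1 of the mix, where 13.1%, 9.37% and 0.486% of all listed tiles had them. Tiles of these genes held fewer CpGs than the rest, with a median of 13, 14 and 15 CpGs in the 3 comparisons against 19, 17 and 19 over all listed tiles.

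Other genes of the pathway were taken from a list of 48 ligands, adaptors, effectors, inhibitors and sheddases. In the shRNA pair, 30 of them had a listed tile (62.5%, against 60.3% of all protein-coding genes), and by its largest tile 13 genes were higher and 17 lower in the E clone. In the KO pair there were 29 (60.4%, against 46.8%), 21 higher and 8 lower, and in the mix 17 (35.4%, against 38.2%), 10 higher and 7 lower. Of all listed tiles, 64.7%, 54.7% and 65% were higher in the 3 comparisons, which counts tiles and not genes by their largest tile. Within 2 kb of a TSS, 15, 13 and 10 of the 48 genes had a listed tile (31.3%, 27.1% and 20.8%), against 37.5%, 21.4% and 19.9% of all genes. By any listed tile, effectors had 24, 23 and 15 of 32, inhibitors and turnover factors had 4, 5 and 2 of 9, and sheddases 1, 0 and 0 of 2. Of the 5 other ligands, only TGFA, an EGFR ligand, had tiles in the single comparisons. Its tile at chr2:70743001-70744000 was at -100 points in the shRNA pair and 79.9 in the KO pair.

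Among the effectors with a tile near a TSS in both single comparisons, PAK1, a kinase activated by small GTPases, had the same tile in both, chr11:77183001-77184000, at 98.8 points for the shRNA pair and 47.8 for the KO pair. SRC, a tyrosine kinase downstream of the receptors, had -94.6 and 47.4 points. For SRC and each gene named after it, the values of the pairs come from different tiles and are not a comparison of like positions. PIK3R2, a regulatory subunit of PI3K, had -91.4 and 36.1 points, and SOS1, which loads RAS with GTP, -50.1 and 34.6 points. STAT5A and STAT5B, neighbouring genes of transcription factors, shared these tiles with each other, at 62.5 and 29.1 points. MAP2K2, a kinase of the MAPK cascade, had -100 and 27.1 points, and the adaptor CRK 100 and 27.0 points. AKT1, a kinase downstream of PI3K and the next gene by the smaller of its differences, had -26.7 and -38.5 points. These values are the largest tile near a TSS of each gene, and other tiles of some of these genes had the opposite sign. The largest tile of AKT1 in the KO pair was at 100 points, that of PIK3R2 at -50 and that of STAT5B at -52.7. The largest tile of STAT5A in the shRNA pair was at -97.0 points.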

How the data were processed

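DNA of 4 SKOV3 clones, 1 library each, was analysed by RRBS with single reads of 50 bp. Per the labels and the submitters' processing notes, the authors checked reads with FastQC, trimmed them with Trim Galore 0.4.1 (the protocol names Trimmomatic), aligned them to hg19 with Bismark 0.16.1 and compared libraries with methylKit in tiles of 1000 bp. The deposited tables give, for the tiles past the authors' thresholds, the change in percent methylation (percentage points) with its p-value and its q-value. The largest q-values listed lie under 0.01. All columns are comparisons made by the authors, which were used because they are the measurements given, and the smallest coverage accepted is not given in the sources used here. No molecular identifiers were used, so several reads may stem from 1 molecule, which a p-value from reads does not account for.

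Tiles were assigned to the gene spans of GENCODE release 44 lifted to GRCh37 (hg19) and extended by 5 kb, and to TSSs within 2 kb. The canonical TSS is that of the Ensembl canonical transcript. Tiles in reach of RRBS were found by digesting the genome at MspI sites in silico (fragments of 40 to 220 bp, reads of 50 bp), and this step and the overlap step were tested on simulated data. AREG was aligned to its copy with minimap2 2.31. Repeats are not marked in the genome used, so no share of repeats per tile was computed, and some fragment sequences are not reported here. Named tiles were those near a TSS, in an exon, in at least 2 tables or with the largest difference of a gene in a table, and a few further tiles were named after their values were seen. The shares of higher tiles have 95% Wilson intervals, and the other shares are given without one. No test between conditions was made, since the tables give no level per library and list a tile only past the limits. The genes, lists and rules were chosen with earlier results of these data known. Scripts ran under Python 3.11.15 with matplotlib 3.10.9, scipy 1.17.1, pandas 2.3.3 and numpy 2.4.6. Alternatives were other gene and TSS windows, stricter thresholds, other transcripts and fragment sizes, the opposite order of subtraction, and leaving out each gene.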

Additional observations from a re-analysis of the deposited data

Results flagged for a closer look

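In 5 tiles the 2 clone pairs had differences of opposite sign, with 1 library per clone, and the difference between the pairs was not tested. The difference of the shRNA pair minus that of the KO pair was 90.0 points at EGFR intron 1 (chr7:55094001-55095000) and -68.9 points at a second EGFR intron 1 tile (chr7:55115001-55116000). It was -85.8 points at the tile that overlaps ERBB4 exon 12 (chr2:212566001-212567000), where 7 of 8 reachable CpGs lie outside exons, and -84.9 points at the internal start of NRG1 (chr8:32504001-32505000). At NRG3 intron 1, just behind the CpG-dense start (chr10:83636001-83637000), it was 64.8 points. With the opposite order of subtraction for the KO pair, these tiles would have like signs and the 8 others opposite ones. The mix as grouped in the paper does not give that order.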

How the results depend on the processing

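Of 168 alternatives, 147 left the value within its limits (1.5 times for counts, the Wilson interval for shares) and 21 did not. At 50 points or more, 39, 11 and 10 tiles of the ERBB genes remained in the shRNA pair, the KO pair and the mix, 3 of the shared tiles remained, all 3 of like direction, and 2 genes kept a tile near a TSS in the KO pair. Genes with a tile near a TSS in the shRNA pair numbered 3 with a window of 1 kb, 3 with basic protein-coding transcripts and 3 without complete differences. Without complete differences, 5 shared tiles had the same direction, and 5 also had it under the opposite order of subtraction, which turned the higher share of the KO pair to 30.4%. With fragments of 30 to 300 bp, the listed share of reachable tiles was 17.4%, 6.40% and 6.10% for the ERBB genes and 11.3%, 6.10% and 4.67% over the genome, so the ERBB genes lay above the genome in the KO pair instead of below it. With at least 5 reachable CpGs the shares were 17.3%, 4.55% and 6.36% against 13.7%, 5.60% and 5.54%. Of the other pathway genes, 15, 13 and 10 had a tile near a TSS. The causes were not tested, apart from the stricter limits, which leave fewer tiles.

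No paired analysis was possible because the tables give no level per library, the labels give no replicate numbers, and a tile is listed in a pair only past the limits. The differences of both pairs stand side by side for the 13 tiles listed in both, without a test. With 1 library per clone no replicate was left out and no coverage minimum was varied. Depth is unknown, and the 14 complete differences of the shRNA pair, in tiles of 5 to 49 CpGs, have no read number beside them. Genes without listed tiles are not shown to be unchanged.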
